A study of Mus musculus with 40 samples.

Results

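Ribosome biogenesis is the assembly of ribosomes, which starts in the nucleolus. RNA polymerase I makes a long precursor there that is cut, chemically modified and folded into the ribosomal RNAs (rRNAs), with the help of small nucleolar ribonucleoproteins (snoRNPs), processing factors and assembly factors for the small and the large subunit. The pathway is most active in growing and dividing cells, of which bone marrow holds many, and the transcription factor Myc is a known activator of its genes.

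The genes described here were chosen by symbol. They are those whose annotated symbol begins with Nop, Nol, Utp or Rrp and a digit, or with Polr1, together with a set of named nucleolar genes such as Fbl, Ncl and Npm1. Of 38 such genes on the array, 15 had values in at least 3 mice of each of the 4 groups, out of 5297 genes and unnamed probes of the array that met that limit. The 15 were Polr1c, Nol11, Utp20, Rrp7a, Nop9, Nop58, Gar1, Nhp2, Nop10, Rrp1, Nop2, Nop16, Rrs1, Nip7 and Nol3. The name ribosome biogenesis is apt for 14 of them. Nol3 (nucleolar protein 3) met the symbol rule but is known as an inhibitor of apoptosis and not as a ribosome assembly factor.

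The RNA came from bone marrow cells of 20 DBA/2 mice, an inbred laboratory strain. One group of 5 mice was untreated, and the others, also of 5 mice each, received 1 intraperitoneal dose of 83 mg/kg cyclophosphamide, whose active metabolites cross-link DNA, with marrow taken 1, 2 or 5 days later. The labels give no age. Each mouse (Cy5) was hybridised on 2 arrays, 40 in all, against 1 common reference (Cy3), which the labels call a pool of untreated marrow in one field and treated in another. The reference cancels in differences between groups. A level below is the log2 ratio of a mouse over this pool, taken as base 2 since the log base is not stated. A change is the difference of 2 group means of that ratio ± its standard error (SE), and a gene is called changed at an adjusted p under 0.05 in limma with Benjamini-Hochberg adjustment over all 5297.

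Between 4079 and 7977 of 13443 probes had a value on an array, and the 2 arrays of a mouse correlated at 0.683 to 0.957 across probes. For the 15 genes, the median absolute difference between the 2 arrays of a mouse was 0.0823, against 0.0753 for all features tested. The marrow changed in its cell markers at the same time. A list of 13 measured proliferation genes, such as Cdk1 and Pcna, had 11 lower and 0 higher on day 1, and 9 lower and 0 higher on day 2. Of all features, 8.38% were called lower on day 1, and 9.61% each way on day 2. Its mean level per mouse was -0.0279 to 0.243 in control, -0.840 to -0.356 on day 1, -0.820 to -0.343 on day 2 and -0.0615 to 0.218 on day 5. On day 2 a macrophage list had 5 of 5 measured genes higher, and its mean per mouse was -0.387 to 0.200 in control and 0.662 to 1.42 on day 2. The macrophage mean was 0.373 to 0.804 on day 1 and -0.621 to -0.156 on day 5. On day 2 a late neutrophil list had 4 of 6 lower and none higher, and its mean per mouse was -0.0967 to 0.207 in control and -1.27 to -0.866 on day 2. An erythroid list had 4 of 9 lower and none higher, and 0 of 5 T cell markers on the array were measured well enough. In RNA of whole marrow, fewer cells of a type and less RNA per cell cannot be told apart, and the part that these shifts had in the results below was not tested.

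The genes called were few, and their changes were below 2-fold. Against control on days 1 and 5, and in a test over the 4 groups, calls were no more frequent than among all features (shares below). Against control, 1 of the 15 genes rose on day 1 (Nop2) and 3 rose on day 2 (Nop2, Rrp1 and Rrs1), while none was called lower on either day and none was called at all on day 5. Rrs1 and Nop58 were higher on day 2 than on day 1, and Nop58 was lower again on day 5 than on day 2. Utp20 and Rrs1 were higher on day 5 than on day 1.

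Of all features tested, 19.1% were called on day 1 (10.7% higher and 8.38% lower), so 1 of 15 genes higher and 0 lower is no more than the background. On day 2 the background was 19.2% (9.61% higher and 9.61% lower), against 3 of 15 and 0 of 15. On day 5 it was 2.62% (0.906% higher and 1.72% lower), against 0 of 15. At an unadjusted p under 0.05 in limma, 1 gene was higher and 3 were lower on day 1, and 3 were higher and 0 lower on day 2. On day 5, 0 were higher and 0 lower. Of all 5297 features at that limit, 876 were higher and 849 lower on day 1, 806 and 909 on day 2, and 275 and 308 on day 5. The median change of the 15 genes was -0.06 on day 1, 0.14 on day 2 and 0.04 on day 5, beside -0.01, -0.02 and 0.01 for all features. By the moderated F test, 4 of the 15 (Rrs1, Nop58, Nop2 and Utp20) differed between the 4 groups, with 30.7% of all features called.

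**Figure D1:**
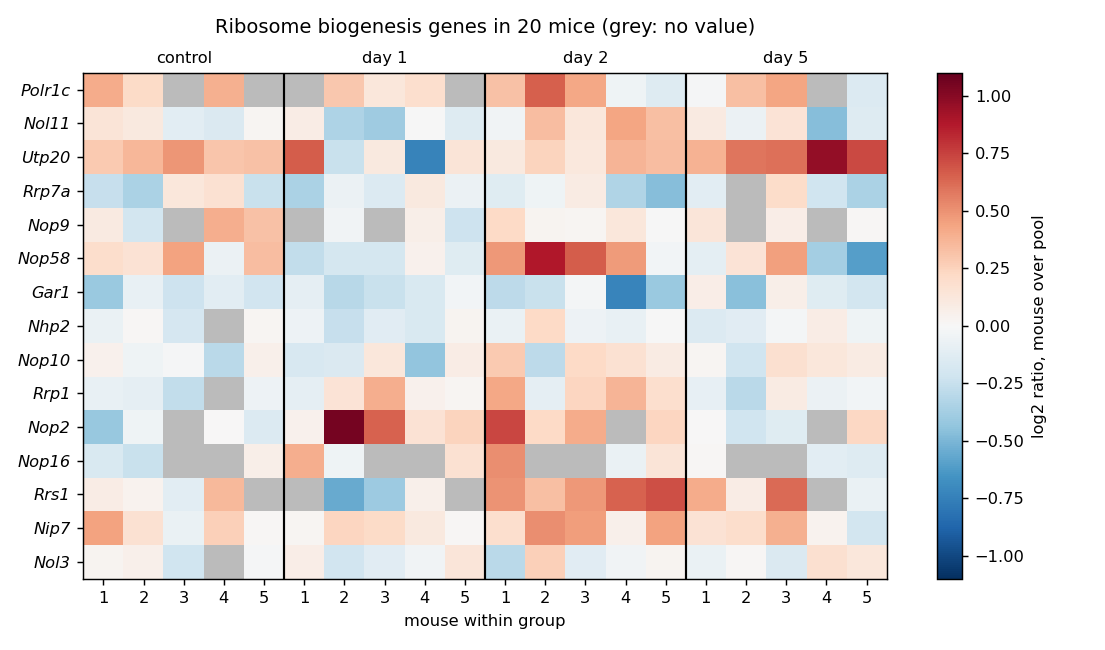
Level of each of the 15 genes (rows, grouped by role) in each of the 20 mice (columns), as the log2 ratio of the mouse over the pool; red is above the pool, blue below, grey marks no value. The darkest cells are Nop2 in day 1 mouse 2 (1.05) and Utp20 in day 5 mouse 4 (0.971), and most cells lie close to 0.

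The promoters of the genes called in a comparison are printed first, so that each gene can be set beside its sequence; they come from RefSeq (GRCm38.p6) and run from 250 bases before to 50 after the annotated start. The table held a promoter for 13 of the 15 genes, and for Rrs1 and Nol3 it held none. The motif searched was CACGTG, the E-box that Myc and related factors bind, which reads the same on both strands. Capitals mark it in Nop2 (chr6:125131633-125131932, plus strand) and Utp20 (chr10:88826765-88827064, minus strand), and Nop58 (chr1:59684756-59685055, plus strand) and Rrp1 (chr10:78412994-78413293, minus strand) hold no match in this window.
Nop2: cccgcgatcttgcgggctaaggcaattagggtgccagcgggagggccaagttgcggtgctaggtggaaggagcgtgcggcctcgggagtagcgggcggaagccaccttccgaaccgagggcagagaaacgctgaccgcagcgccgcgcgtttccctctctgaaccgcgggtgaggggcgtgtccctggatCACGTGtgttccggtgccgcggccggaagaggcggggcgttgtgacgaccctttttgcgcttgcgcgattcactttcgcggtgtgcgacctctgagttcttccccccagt
Utp20: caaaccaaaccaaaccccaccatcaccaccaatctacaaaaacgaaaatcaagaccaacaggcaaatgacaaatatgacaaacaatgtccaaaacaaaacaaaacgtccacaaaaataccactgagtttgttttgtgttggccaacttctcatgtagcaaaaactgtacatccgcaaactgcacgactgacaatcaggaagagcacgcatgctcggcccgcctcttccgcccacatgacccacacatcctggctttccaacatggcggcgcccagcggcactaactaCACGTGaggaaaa
Nop58: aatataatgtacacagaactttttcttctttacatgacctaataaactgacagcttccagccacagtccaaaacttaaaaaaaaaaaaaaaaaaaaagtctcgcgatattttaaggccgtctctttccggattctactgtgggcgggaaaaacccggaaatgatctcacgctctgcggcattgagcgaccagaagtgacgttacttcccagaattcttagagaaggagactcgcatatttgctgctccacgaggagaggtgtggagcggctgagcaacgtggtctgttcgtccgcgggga
Rrp1: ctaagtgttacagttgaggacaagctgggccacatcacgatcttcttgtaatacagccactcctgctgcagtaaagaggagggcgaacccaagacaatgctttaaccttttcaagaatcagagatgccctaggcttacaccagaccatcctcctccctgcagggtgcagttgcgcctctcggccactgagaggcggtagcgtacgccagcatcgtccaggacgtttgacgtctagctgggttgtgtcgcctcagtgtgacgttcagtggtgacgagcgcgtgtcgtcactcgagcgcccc

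The match begins at position -60 from the start in Nop2 and at position 38 in Utp20. The promoters of Nol11 and Rrp7a also hold 1 match each, which makes 4 of 13. Counted by gene, a match is held by 8.09% of the 27025 genes of that RefSeq set and by 11.2% of the 3180 named genes tested that have an entry, and counted by promoter by 7.15% of 32851 and 9.24% of 4136. A match is a description of the letters and says nothing of binding in these cells. Of the 4 genes with a match, Nop2 was called against control, Utp20 was called between days 1 and 5, and Nol11 and Rrp7a were called in none of the 6 comparisons.

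The large-subunit factors held the 3 genes called against control. Rrs1, which in yeast helps to bring a small rRNA with its proteins into the large-subunit precursor, rose on day 2 after a lower level on day 1. Its level was 0.0781, 0.035, -0.119 and 0.353 in the 4 control mice with a value. On day 1 only 3 mice had a value, at -0.554, -0.398 and 0.0597. On day 2 all 5 mice were at 0.491, 0.332, 0.480, 0.650 and 0.713. The lowest day 2 mouse was above every day 1 mouse, and 1 control mouse lay within the day 2 range. On day 5 the level was 0.412, 0.0851, 0.623 and -0.0708 in 4 mice, a range that overlapped every other group.

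Rrs1 was higher on day 2 than on day 1 by 0.83 ± 0.16 (1.78-fold, adjusted p = 0.00891 in limma), the largest change of any of the 15 genes in the 6 comparisons. Against control it was at -0.38 ± 0.17 on day 1 (adjusted p = 0.128) and rose by 0.45 ± 0.15 on day 2 (1.36-fold, adjusted p = 0.0443), with 5 of 5 mice above the control mean. The day 2 rise against control was close to the threshold and was called in 9 of 17 fits that left out 1 mouse, with adjusted p up to 0.128, being lost without any 1 of control mice 1, 2, 3 and 5 or day 2 mice 1, 3, 4 and 5, whereas the difference between days 2 and 1 was called in all 17. Control mouse 5 had no Rrs1 value, so leaving it out changed only the moderation and the adjustment over all features. On day 5 Rrs1 was 0.56 ± 0.17 above day 1 (adjusted p = 0.0223), and this was lost without day 5 mouse 1 or mouse 3.

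Nop2, an enzyme that methylates a cytosine of the large-subunit rRNA, was above control on days 1 and 2. Its level was -0.418, -0.0478, 0.003 and -0.152 in 4 control mice. On day 1 it was 0.0449, 1.05, 0.649, 0.160 and 0.249, and on day 2 it was 0.733, 0.222, 0.410 and 0.237 in 4 mice. Every treated mouse of days 1 and 2 was above every control mouse. Such a separation upward was met by 6.95% of all features on day 1 and 9.59% on day 2. On day 5 Nop2 was at 0.0064, -0.221, -0.134 and 0.226 in 4 mice, overlapping control.

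Nop2 rose by 0.58 ± 0.17 on day 1 (1.5-fold, adjusted p = 0.0234 in limma) and by 0.55 ± 0.18 on day 2 (1.47-fold, adjusted p = 0.0377), and was at 0.12 ± 0.18 on day 5 (adjusted p = 0.923). Its day 5 level was -0.46 ± 0.17 from day 1 (adjusted p = 0.0548). The array error of Nop2 was larger than that of most of the other genes, with both arrays read in only 11 mice and a largest difference between them of 0.679. The day 1 call was lost without control mouse 1, day 1 mouse 2 or day 1 mouse 3. With both arrays of a mouse required, Nop2 had values in too few mice to be tested. The day 2 call was lost without control mouse 1, control mouse 5, day 2 mouse 1 or day 2 mouse 3.

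Rrp1, a factor of large-subunit rRNA processing in yeast, rose on day 2. Its level was -0.0823, -0.101, -0.274 and -0.0579 in 4 control mice, and -0.101, 0.151, 0.400, 0.0445 and 0.0196 on day 1. The day 2 mice were at 0.428, -0.0961, 0.239, 0.373 and 0.183. On day 5 it was back at -0.0944, -0.295, 0.0893, -0.0665 and -0.0299. On day 2, 4 mice were above every control mouse and mouse 2 was within the control range.

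The change of Rrp1 was 0.23 ± 0.12 on day 1 (adjusted p = 0.181 in limma), 0.35 ± 0.12 on day 2 (1.28-fold, adjusted p = 0.0405) and 0.05 ± 0.12 on day 5 (adjusted p = 0.963). From day 2 to day 5 it was -0.30 ± 0.11 (adjusted p = 0.0573). The day 2 call held in 13 of 20 fits that left out 1 mouse, being lost without any 1 of 4 control mice (1, 2, 3 and 5) or of day 2 mice 1, 3 and 4. The symbol Rrp1 is carried by 2 probes, of which 1 had no value on any array.

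Nop16, a nucleolar protein that in yeast belongs to the large-subunit precursor, had values in 3 mice of each group. It was at 0.29 ± 0.17 on day 1 (adjusted p = 0.241 in limma) and 0.31 ± 0.17 on day 2 (adjusted p = 0.21). In both groups 3 of 3 mice were above the control mean of -0.116, and neither change was called. Nip7, which takes part in rRNA processing, was at 0.17 ± 0.12 on day 2 (adjusted p = 0.365). Its levels lay between -0.0731 and 0.446 in control and between 0.0535 and 0.509 on day 2.

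The snoRNP proteins fell into those that guide methylation and those that guide pseudouridylation of rRNA. Nop58 is a core protein of the box C/D snoRNPs, which methylate rRNA. Its level was 0.197, 0.156, 0.439, -0.0602 and 0.341 in control, and -0.269, -0.189, -0.192, 0.051 and -0.133 on day 1. On day 2 it was 0.475, 0.882, 0.667, 0.472 and -0.0279. On day 5 it was -0.111, 0.149, 0.449, -0.372 and -0.609. Of the day 2 mice, 4 were above every day 1 and every control mouse, while mouse 5 was within the range of both.

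Nop58 was higher on day 2 than on day 1 by 0.64 ± 0.17 (1.56-fold, adjusted p = 0.0418 in limma). From day 2 to day 5 it fell by 0.59 on the log2 scale ± 0.17 (1.51-fold, adjusted p = 0.0129), with 5 of 5 mice below the day 2 mean. Against control it was at -0.36 ± 0.17 on day 1 (adjusted p = 0.135), 0.28 ± 0.17 on day 2 (adjusted p = 0.257) and -0.31 ± 0.17 on day 5 (adjusted p = 0.522), and no day was called. The difference between days 2 and 5 was called in all 20 fits that left out 1 mouse, and that between days 1 and 2 in 10 of 20, with adjusted p up to 0.11. It was lost without control mouse 1 or 2, day 1 mouse 1, 2, 3 or 5, or day 2 mouse 1, 2, 3 or 4. The difference between days 1 and 2 was also lost in 5 of 17 alternatives, among them quantile-normalised arrays (adjusted p = 0.124). That between days 2 and 5 was lost in 3 of 17, at the stricter threshold of 0.01, with array weights (adjusted p = 0.0649) and with both arrays of a mouse required (adjusted p = 0.0649).

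Gar1, Nhp2 and Nop10 are core proteins of the box H/ACA snoRNPs, which convert uridines of rRNA to pseudouridine, and of telomerase. None of the 3 was called in any comparison. Gar1 was below the pool in all 5 control mice (-0.411, -0.081, -0.226, -0.118 and -0.207), and it was at -0.0951, -0.301, -0.246, -0.169 and -0.0268 on day 1. The day 2 mice were at -0.290, -0.244, -0.0182, -0.728 and -0.410, and on day 5 it was 0.0727, -0.459, 0.0658, -0.135 and -0.205. The groups overlapped throughout, and the change of Gar1 against control was between -0.13 ± 0.12 (day 2) and 0.08 ± 0.12 (day 5).

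Nhp2 had the smallest SE of the 15 genes. Its level was -0.0737, 0.0138, -0.182 and 0.0217 in 4 control mice, and -0.0587, -0.253, -0.127, -0.167 and 0.0314 on day 1. On day 2 it was -0.0731, 0.217, -0.06, -0.0808 and -0.0064, and on day 5 it was -0.154, -0.122, -0.0256, 0.078 and -0.0507. Each group spanned 0, and the largest change against control was -0.06 ± 0.10, on day 1 (adjusted p = 0.707 in limma). Nop10 was at -0.06 ± 0.12 on day 1, 0.14 ± 0.12 on day 2 and 0.09 ± 0.12 on day 5. All 3 were therefore within 0.15 of control in their estimates, and whether they differed from Nop58 was not tested.

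**Figure D2:**
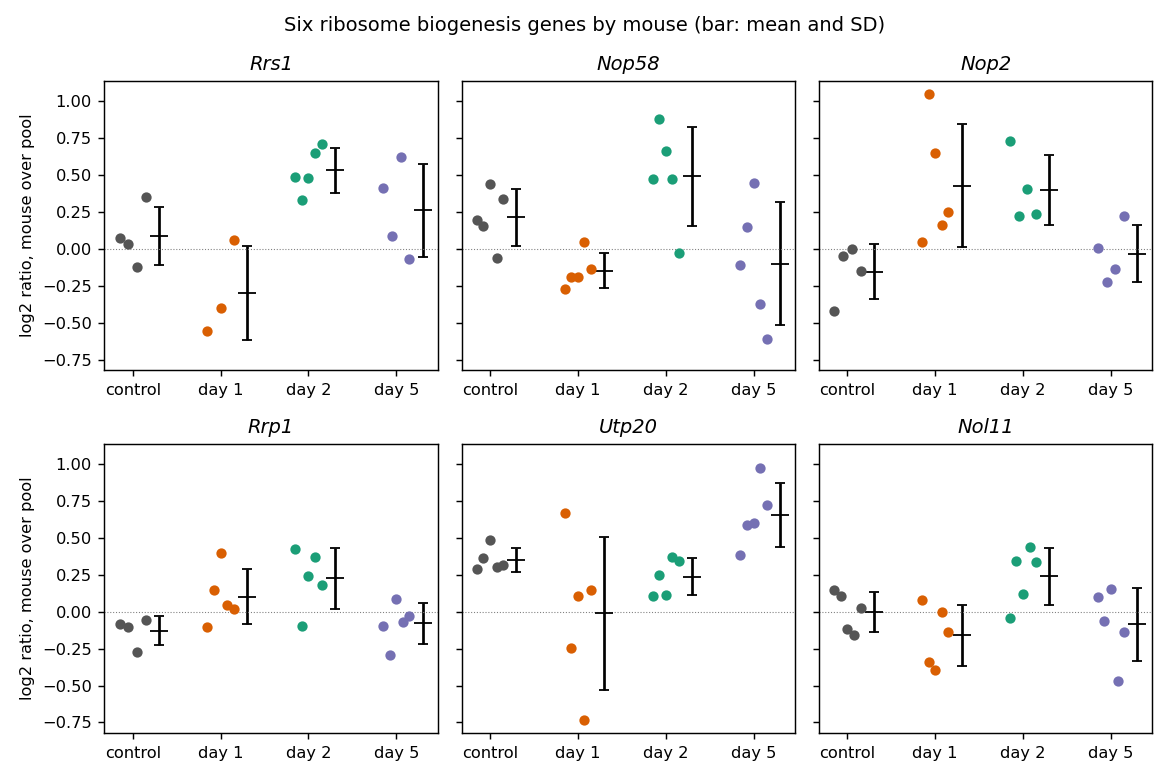
Level of 6 of the genes in each mouse (points) as the log2 ratio over the pool, with the mean and SD of each group beside the points. Rrs1 and Nop58 are lowest in mean on day 1 and highest on day 2, Nop2 and Rrp1 lie above control on day 2, and Utp20 is spread from -0.732 to 0.666 on day 1 and between 0.384 and 0.971 on day 5.

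The small-subunit factors were not called against control on any day. Utp20 is a large protein of the processome that makes the small-subunit rRNA. Its level was 0.287, 0.362, 0.488, 0.302 and 0.319 in control, and 0.666, -0.245, 0.110, -0.732 and 0.145 on day 1. On day 2 it was 0.103, 0.248, 0.114, 0.374 and 0.343, and on day 5 it was 0.384, 0.586, 0.605, 0.971 and 0.726. The control mice lay close together and the day 1 mice far apart, although the 2 arrays of a mouse differed for Utp20 by at most 0.143. On day 5 all 5 mice were above all 5 day 2 mice, as 9.67% of all features were.

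Utp20 was at -0.36 ± 0.17 on day 1 (adjusted p = 0.132 in limma), -0.12 ± 0.17 on day 2 (adjusted p = 0.687) and 0.30 ± 0.17 on day 5 (adjusted p = 0.552) against control. Between day 1 and day 5 it rose by 0.67 ± 0.17 (1.59-fold, adjusted p = 0.00496), with 5 of 5 mice above the day 1 mean, and this was called in all 20 fits that left out 1 mouse. The comparison of days 5 and 1 was added after the values of Utp20 had been seen, and 25.3% of all features were called in it (12.2% higher and 13.1% lower). Besides Utp20, Rrs1 was called higher in it and none of the 15 lower. Utp20 was chosen for a full description after its values had been seen, as was Nol11. The day 1 change was called lower in 1 of 20 such fits, without day 1 mouse 1 (-0.53, adjusted p = 0.01), and also on quantile-normalised arrays (-0.47, adjusted p = 0.0393). From day 2 to day 5 Utp20 was at 0.42 ± 0.17 (adjusted p = 0.0777).

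Nol11 belongs to the part of that processome that is also needed for transcription of the rRNA genes in human cells. Its level was 0.145, 0.110, -0.117, -0.161 and 0.0231 in control, and 0.0818, -0.343, -0.394, -0.0022 and -0.140 on day 1. On day 2 it was -0.0401, 0.343, 0.122, 0.437 and 0.335, and on day 5 it was 0.102, -0.0649, 0.152, -0.472 and -0.140. All 5 day 2 mice were above the day 1 mean, but the groups overlapped. Nol11 differed between days 2 and 1 by 0.40 ± 0.13 (adjusted p = 0.101 in limma) and between days 5 and 2 by -0.32 ± 0.13 (adjusted p = 0.0704), and neither was called. With each array kept and the mouse as a random block, both were (adjusted p = 0.0262 and 0.0309).

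Rrp7a and Nop9, small-subunit factors by their yeast relatives, showed no called change. Rrp7a was at 0.01 ± 0.13 on day 1, -0.06 ± 0.13 on day 2 and -0.01 ± 0.14 on day 5. Nop9 was at -0.22 ± 0.14, -0.07 ± 0.12 and -0.08 ± 0.14 on the same days. Polr1c, a subunit that RNA polymerases I and III share, was the only measured gene of the polymerase. Its level was 0.406, 0.211 and 0.394 in 3 control mice and between -0.148 and 0.656 in the treated mice. Polr1c was at -0.14 ± 0.19 on day 1 (adjusted p = 0.656 in limma), -0.09 ± 0.17 on day 2 (adjusted p = 0.755) and -0.19 ± 0.18 on day 5 (adjusted p = 0.851). Nol3, the apoptosis inhibitor, had changes of 0.00 on day 1, 0.00 on day 2 and 0.05 ± 0.12 on day 5 against control.

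**Figure D3:**
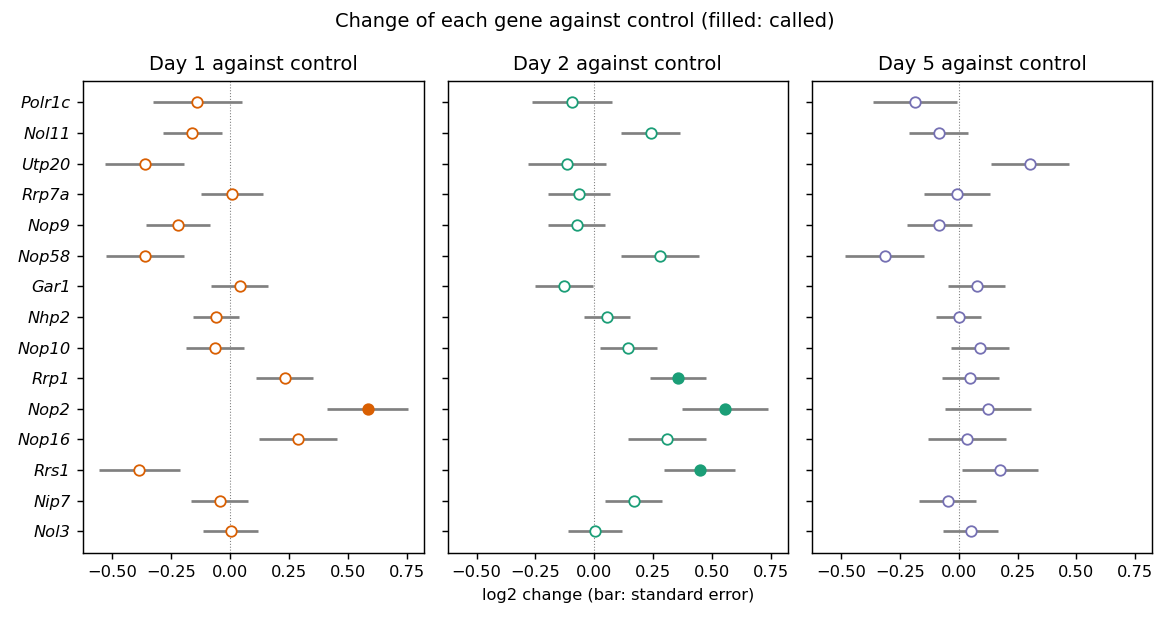
Change of each of the 15 genes against control on days 1, 2 and 5 (log2, with SE), in 3 panels; filled points were called at an adjusted p under 0.05. Nop2 is filled on day 1, Nop2, Rrp1 and Rrs1 on day 2, and none on day 5, where all 15 lie between -0.31 and 0.30.

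The signs of the estimates, called or not, were mixed on every day. On day 1, 6 changes against control were positive and 9 negative. On day 2, 10 were positive and 5 negative, and on day 5, 9 and 6. Of all features, 2532 were positive and 2765 negative on day 1, 2466 and 2831 on day 2, and 2757 and 2540 on day 5. The mean level over the 15 genes was -0.016 to 0.113 in the control mice, -0.055 to 0.0199 on day 1, 0.0965 to 0.217 on day 2 and -0.0512 to 0.210 on day 5. Every day 2 mouse was above every day 1 mouse, and 2 day 2 mice were below control mouse 4, the highest of its group. These means rest on 11 to 15 genes with a value in a mouse.

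Between days 2 and 1, 2 of the 15 genes were called higher and 0 lower, with 2.1% of all features called (1.36% higher and 0.736% lower). The 2 were Rrs1 and Nop58, at 0.83 and 0.64, and the median change of the 15 was 0.12, beside -0.02 for all features. At an unadjusted p under 0.05 in limma, 3 were higher and 0 lower, beside 333 and 364 of all 5297 features. Between days 5 and 2, 0 were called higher and 1 lower (Nop58), with 20.8% of all features called (10.3% higher and 10.5% lower), and the median was -0.09, beside 0.03. At an unadjusted p under 0.05, 1 was higher and 4 were lower, beside 898 and 836 of all 5297 features.

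Groups whose mice did not overlap were counted as well. Against control, 1 of the 15 genes was wholly higher and 0 wholly lower on day 1 (6.95% and 6.1% of all features), 1 and 0 on day 2 (9.59% and 9.4%), and 0 and 0 on day 5 (3.13% and 3.21%). Between days 2 and 1 the counts were 1 and 0 (2.36% and 1.98%), between days 5 and 2 they were 1 and 0 (9.67% and 9.27%), and between days 5 and 1 they were 0 and 0 (8.21% and 8.59%).

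The other genes of the pathway were taken from lists of assembly factors. Of 16 measured large-subunit factors that the symbol rule had not taken, 1 rose and 0 fell on day 1, 4 rose and 1 fell on day 2, and 0 rose or fell on day 5, with medians of -0.09, 0.10 and -0.02. Of all features, 10.7% were called higher and 8.38% lower on day 1 and 9.61% each way on day 2, so the day 1 count is at or below the background. The 4 higher on day 2 became 0 without day 2 mouse 3 or 4, 1 without control mouse 2 or 3 or day 2 mouse 1 or 2, and 2 without control mouse 4 or 5 or day 1 mouse 5. Without control mouse 2 or 5, 15 of the 16 were tested. At an unadjusted p under 0.05 in limma, 1 was higher and 0 lower on day 5, beside 275 and 308 of all 5297 features. On day 2 the helicase Ddx21, which acts in rRNA transcription and processing, rose by 0.55 ± 0.16 (adjusted p = 0.0212 in limma). The nucleolar methyltransferase Ftsj3 rose by 0.31 ± 0.11 (adjusted p = 0.0431) and the helicase Ddx56 by 0.30 ± 0.10 (adjusted p = 0.0354). Another helicase of the list, Ddx54, went the other way, at -0.61 ± 0.14 (adjusted p = 0.00461). Eif6, which keeps the new large subunit from joining the small one too early, rose by 0.51 ± 0.125 on day 1 (adjusted p = 0.00828), in 4 mice, and by 0.34 ± 0.12 on day 2 (adjusted p = 0.0472).

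From day 2 to day 5, Ddx21 (-0.75 ± 0.16, adjusted p = 0.00185 in limma), Ftsj3 (-0.44 ± 0.11, adjusted p = 0.00459) and Ddx56 (-0.39 ± 0.10, adjusted p = 0.00571) fell, as Nop58 did, and Ddx54 rose by 0.61 ± 0.14 (adjusted p = 0.00313). These were the 3 lower and 1 higher of the 16 factors, beside 10.5% and 10.3% of all features. Between days 2 and 1, 3 of the 16 factors were called higher and 1 lower, beside 1.36% and 0.736% of all features. Ftsj3 was higher by 0.53 ± 0.11 (adjusted p = 0.00807), Ddx21 by 0.63 ± 0.16 (adjusted p = 0.038) and Ddx56 by 0.38 ± 0.10 (adjusted p = 0.0426). Ddx54 was called lower in the same comparison, at -0.55 ± 0.14 (adjusted p = 0.038). Without any 1 of day 1 mice 2, 3 and 4 or day 2 mice 1, 2, 3 and 4, only 1 was called higher, and Ddx54 was not called without day 1 mouse 1, 4 or 5 or day 2 mouse 1, 2, 3 or 4. Only 15 of the 16 were tested without day 1 mouse 2, 3 or 4.

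Of 10 measured small-subunit factors outside the symbol rule, 1 fell on day 1 and 0 rose, which is near the 8.38% of all features called lower. It was Fcf1, a nuclease-like protein of the processome, at -0.69 ± 0.18 (adjusted p = 0.012 in limma, 4 control and 3 day 1 mice), and could not be tested without any of those day 1 mice. On days 2 and 5 none of these 10 was called, and at an unadjusted p under 0.05 in limma 1 was lower and 0 higher on each day. Of all 5297 features at that limit, 909 were lower and 806 higher on day 2, and 308 and 275 on day 5. Among 8 measured exosome and RNase MRP genes, which trim and cut rRNA precursors, the exosome subunit Exosc8 fell on day 1 (-0.45 ± 0.15, adjusted p = 0.0362), also near that background. No gene of this list was called on day 1 without control mouse 1, 2 or 5 or day 1 mouse 2, 3, 4 or 5, and 3 were without control mouse 4 and 2 without day 1 mouse 1. In this list 0 were called on day 2 or day 5 (at an unadjusted p under 0.05, 1 lower on day 2 and 0 on day 5). The polymerase I factors Ubtf and Taf1c were not called against control; Ubtf was at -0.29 ± 0.12 on day 5 (adjusted p = 0.295). Myc was at -0.01 ± 0.17 on day 1, 0.33 ± 0.18 on day 2 (adjusted p = 0.198) and 0.09 ± 0.18 on day 5.

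The products of the pathway, the cytosolic ribosomes, were also represented by their proteins. Of 27 measured ribosomal protein genes, 10 fell and 0 rose on day 1, with a median change of -0.43, beside 8.38% of all features called lower and 10.7% higher. The mean over these genes was 0.0391, -0.369, -0.0686, -0.793 and -0.0212 in the day 1 mice and -0.073 to 0.506 in control, so 3 of the 5 day 1 mice were within the control range and mice 2 and 4 were below it. Without day 1 mouse 4 the median was -0.22 and 5 genes were called lower, without day 1 mouse 2 also 5, and without control mouse 1 or 3, 6. Only 24 of the 27 genes could be tested without day 1 mouse 2 or 4. Against control, 0 were called on day 2 (median 0.07) and 0 on day 5 (median 0.24). At an unadjusted p under 0.05 in limma, 1 was higher and 1 lower on day 2, and 4 were higher and 0 lower on day 5. Of all 5297 features, 806 and 909 were so on day 2, and 275 and 308 on day 5. Between days 2 and 1, 1 was called higher and 0 lower, beside 1.36% and 0.736% of all features, with a median of 0.48. Of these changes 25 were positive and 2 negative, beside 2373 and 2924 of all 5297 features. At an unadjusted p under 0.05, 14 were higher and 0 lower, beside 333 and 364 of all features. Without day 1 mouse 4 the median was 0.30 and 0 were called, of 24 genes tested. Between day 1 and day 5, 15 of the 27 rose and 0 fell, with a median of 0.61, beside 12.2% of all features called higher and 13.1% lower. The count was 9 of 24 tested without day 1 mouse 2, 10 of 24 without day 1 mouse 4 and 10 of 26 without day 5 mouse 2. In the same comparison 2 of the 15 biogenesis genes rose and 0 fell, with a median of 0.05, which is near the background. The exosome and RNase MRP list had 5 of 8 higher and 0 lower (median 0.39), among them Pop4 (0.53 ± 0.17, adjusted p = 0.0219 in limma) and Exosc5 (0.45 ± 0.12, adjusted p = 0.00641). That count was 2 without day 5 mouse 3 and 3 without day 1 mouse 3 or day 5 mouse 4. Ubtf, which binds the rRNA genes, was called lower (-0.35 ± 0.12, adjusted p = 0.0335). Day 1 mouse 4, the lowest for ribosomal proteins, was also the lowest for Utp20. The same mouse was the highest of day 1 for Rrs1 (0.0597) and Nop58 (0.051). Among the 15 genes it was the lowest day 1 mouse for 2 and the highest for 4.

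Other marker lists moved with the ribosomal protein genes or against them. The mean of 2 granulocyte precursor genes was 0.229 to 0.820 in control, -0.947 (mouse 4) to 0.177 on day 1, 0.178 to 0.682 on day 2 and 1.16 to 1.92 on day 5. The mean of 3 monocyte genes was -0.213 to 0.532 in control, -0.695 to -0.259 on day 1 and 0.615 to 0.774 on day 5. These lists, like the ribosomal proteins, were lower in mean on day 1 than in control and highest on day 5. On day 2 they differed. The monocyte mean over mice was then -0.282, beside 0.183 in control, and that of the ribosomal proteins was 0.177, beside 0.137. The mean of 3 mature B cell genes was -0.270 to -0.0063 in control, 0.406 to 0.916 on day 1 and -1.90 to -1.20 on day 5, and that of 2 B cell precursor genes was -0.0774 to 0.559, -1.03 to -0.0902 and -1.82 to -0.336. The part of these shifts in the day 1 and day 5 results, those of Rrs1, Nop58 and Utp20 included, was not tested.

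**Figure D4:**
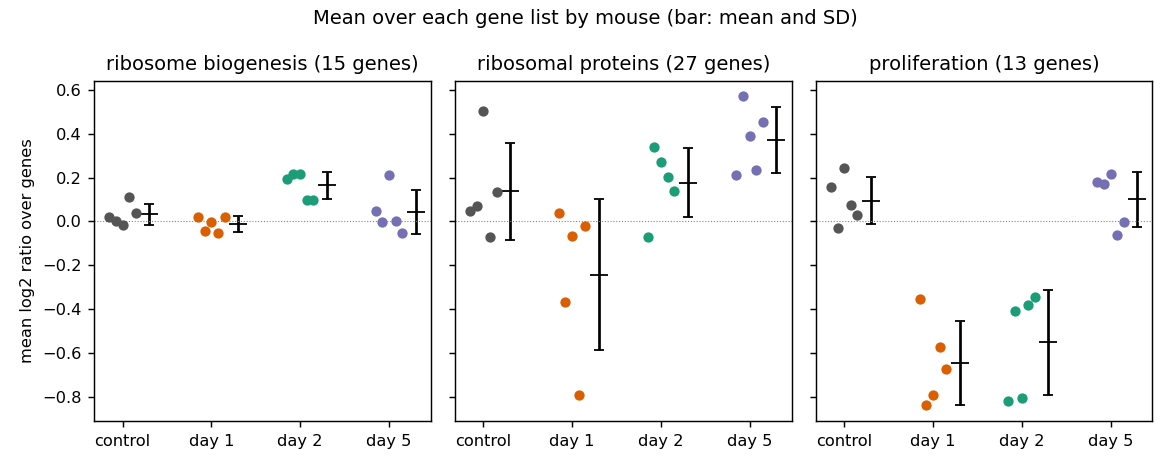
Mean log2 ratio over the measured genes of 3 lists in each mouse (points), with the mean and SD of each group. The biogenesis genes stay between -0.055 and 0.217 in all mice, the ribosomal proteins reach down to -0.793 on day 1, and the proliferation genes are below all control mice on days 1 and 2.

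The lists can be set side by side by day. On day 1, 11 of 13 proliferation genes and 10 of 27 ribosomal protein genes were called lower, beside 8.38% of all features. Of the 15 biogenesis genes 0 were, which is near that background. Their 3 lowest changes were those of Rrs1, Utp20 and Nop58 (-0.38, -0.36 and -0.36). On day 2, 9 of 13 proliferation genes were lower, while 3 of 15 biogenesis genes were higher, beside 9.61% of all features each way. The difference between the lists was not tested.

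The remaining 23 genes of the symbol rule could not be compared. No array gave a value for 14 of them, namely Bysl, Ebna1bp2, Imp4, Nol7, Nol9, Nop56, Npm1, Pes1, Polr1b, Polr1e, Rrp15, Utp11, Utp23 and Wdr12. The other 9 had values in some mice. Fbl, the methylase of the box C/D snoRNPs, was measured in 3 control mice and 1 mouse of each other group, and Ncl, the abundant nucleolar protein nucleolin, in 1 control mouse. Utp3 and Rrp8 were each measured in 3 control, 3 day 1, 1 day 2 and 1 day 5 mice, Mrto4 in 2, 2, 4 and 3, Polr1a in 1, 1, 2 and 2, Utp14a in 2, 1, 1 and 1, Polr1d in 2, 1, 1 and 0, and Bop1 in 1 control mouse. No source used here states the rule behind the blank values, so a blank cannot be read as a low level.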

How the data were processed

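The deposited values are log2 ratios of each mouse over the common reference, 1 per probe and array, from the authors; no source used here states their log base, scanner, background correction, centring or rule for blanks. They run from -4.8 to 2.67, with array medians within 0.0151 of 0, and 40.7% to 69.7% of probes are blank per array. Per the labels' protocols, RNA was amplified and labelled with amino allyl chemistry.

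Of 13443 probes, 10032 had 1 symbol in the platform annotation, 170 several and 3241 none; 10030 matched RefSeq (GRCm38.p6), whose symbols were used. The 2 arrays of a mouse were averaged, then probes of a symbol, giving 13027 features, of which 5297 had values in at least 3 mice of each group. limma 3.58.1 (R 4.3.3) fitted 1 mean per group over 20 mice with empirical Bayes moderation, and the median SE of a change on day 1 was 0.132. No pseudocount or imputation was used. None of the 15 genes had a value that looked saturated.

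Values are given by mouse for each gene called in a comparison and for fixed core genes; up to 4 called genes are named from each other list and comparison. The genes and lists were chosen with earlier results of these data known. Same-numbered mice of different groups correlated in their deviations at -0.377 to 0.312, above 0.1 in 8 of 30 pairs. Mice with different numbers were not compared in this way, so these values cannot show whether the numbers pair mice. The labels give no pairing, and none was used in the main fit. The steps were tested on simulated data. By their labels, mice are biological replicates.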

Additional observations from a re-analysis of the deposited data

Results flagged for a closer look

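Of 51 sets of 4 or 5 mice (a gene in a group), 2 held a mouse far from the others, and chance gives about 1 in 20. Nhp2 was at 0.217 in day 2 mouse 2, with the next mouse at -0.0064. Nop10 was at -0.296 in control mouse 4, with the next at -0.0442.

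The change against control differed between days, by the test of the days themselves in limma, for 3 genes. Rrs1 differed by 0.83 between days 2 and 1 and by 0.56 between days 5 and 1, Nop58 by 0.64 between days 2 and 1 and by -0.59 between days 5 and 2, and Utp20 by 0.67 between days 5 and 1. These comparisons share mice, so they are not separate evidence.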

How the results depend on the processing

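No called change of the 15 genes reversed in the fits where it could be tested, which were 14 of 17 alternatives for Nop2, 16 for Rrp1 and Rrs1 and 17 for Nop58 and Utp20, and 17 of 20 fits that left out 1 mouse for Rrs1 and 20 for the others. The counts of genes called, being small, moved often. In the main setting they were 1 (day 1 against control), 3 (day 2), 0 (day 5), 2 (day 2 against day 1), 1 (day 5 against day 2), 2 (day 5 against day 1) and 4 (F test). At an adjusted p under 0.01 they were 0, 0, 0, 1, 0, 1 and 1, and under 0.1 the count for day 5 against day 2 was 5. On day 1 the count was 2 with each array kept and the mouse as a random block, with quantile normalisation, with only the mice of the groups compared, with array weights, and without control mouse 4 and day 1 mouse 1 together. It was 0 with technical replicate 1 alone, with values in all 5 mice required, and with both arrays required. In each of these settings Nop2, the gene called on day 1 in the main setting, had too few values to be tested. On day 2 it was 1 with technical replicate 1 alone and 0 with technical replicate 2 alone or with all 5 mice required. Nop2, Rrp1 and Rrs1 had values in only 4 control mice each. With all 5 mice required they could not be tested in any comparison or in the F test. The 0 on day 2 was thus fixed by that requirement, and the other counts in that setting say nothing of these 3 genes. For day 2 against day 1 it was 1 with technical replicate 2 alone, with all 5 mice required, with median centring, with quantile normalisation and without the 2 mice. For day 5 against day 2 it was 4 with each array kept, 2 with technical replicate 1 alone or with array weights, 3 with only the groups compared or without the 2 mice, and 0 with both arrays required. For day 5 against day 1 it was 1 with all 5 mice required or only the groups compared, and for the F test it was 2 with all 5 mice required. The requirements for both arrays and for leaving out the 2 mice together were chosen after seeing the data, and with values in all 5 mice fewer genes were tested. The cause of the other shifts was not tested.

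The mouse number was also used as a replicate block, although the labels give no pairing of mice. With this block, 1 of the 15 genes was called on day 2 (Rrs1). Nop2 was at an adjusted p of 0.0909 and Rrp1 at 0.0612 in limma. The other counts stayed within 1.5 times.

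The median change of the 15 genes on day 2 (0.14) was 0.0346 with technical replicate 1 alone and 0.0543 with both arrays required. Nop2 could not be tested in either setting. For day 2 against day 1 (0.12) the median was 0.2293 with all 5 mice required. That requirement left only Gar1, Nip7, Nol11, Nop10, Nop58 and Utp20 and did not alter their changes, so the shift came from the genes left out. Over all features, calls on day 1 (1012) became 379 at an adjusted p under 0.01 and 1891 with array weights, and on day 2 (1018) they became 452 at 0.01. On day 5 (139) they became 71 at 0.01, 210 with each array kept and 366 with array weights. For day 2 against day 1 (111) they became 221 at 0.1, 45 at 0.01, 241 with each array kept, 65 with only the groups compared and 278 with array weights. They became 623 at 0.01 for day 5 against day 2 (1102) and 736 for day 5 against day 1 (1341).

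Leaving out 1 mouse at a time, the 15 genes gave 0 to 2 calls on day 1, 0 to 3 on day 2, 0 on day 5, 0 to 2 for day 2 against day 1, 1 to 3 for day 5 against day 2, 1 to 3 for day 5 against day 1 and 2 to 6 by the F test. All features gave 611 to 1313, 592 to 1123, 100 to 161, 77 to 167, 816 to 1211 and 970 to 1574 calls in the 6 comparisons. The median change ran from -0.1022 to -0.0183 on day 1, 0.0848 to 0.1694 on day 2, 0.0013 to 0.0589 on day 5, 0.0843 to 0.1584 for day 2 against day 1, -0.2297 to -0.0503 for day 5 against day 2 and -0.0433 to 0.0707 for day 5 against day 1. The lowest medians of the last 2 came without day 5 mouse 3. Rrs1 could not be tested without a measured day 1 mouse.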
